A study of Mus musculus with 36 samples.

Results

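Single-strand DNA breaks (SSBs) and apurinic/apyrimidinic (AP) sites were compared in the same peripheral blood mononuclear cell (PBMC) samples, 2 libraries of each lesion, which are 4 of the 36 samples of the series and 4 of the 24 that had a file of lesion positions. They were chosen by tissue and assay from the sample labels and not by a measured value, though earlier results of these data were known. The PBMCs came from male C57BL/6J mice of 24 months, without a treatment or an engineered allele in any group. The blood was separated on Ficoll-Paque PLUS, the DNA was purified with the TIANamp Genomic DNA kit and RNase A, and the methods state that no proteinase K was used. The labels describe 2 mice as the source of all 6 tissues, so tissues of a mouse are not independent, and p-values measure the spread between these samples. Each SSB library carries the label of the AP library made from the same sample. A PBMC preparation is a mixture of T cells, B cells, NK cells and monocytes, and lesion positions in DNA hold no expression by which that makeup could be checked.

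An SSB is a gap or nick in the sugar-phosphate backbone of a single strand of the duplex. An AP site is a sugar that has lost its base, either by spontaneous hydrolysis, which removes purines more readily than pyrimidines, or through a DNA glycosylase that opens base excision repair. AP endonuclease then cuts the backbone beside the AP site, so that SSBs are also an intermediate in the repair of AP sites. Lymphocytes and monocytes in circulating blood are mostly non-dividing cells.

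The SSB libraries held 225011 and 305827 positions and the AP libraries 910316 and 874055. Of these, 220728, 299884, 893588 and 858378 lay on the 19 autosomes, to which every share below refers. A position is a nucleotide on a named strand and was counted once whatever the number of reads. Between 0.373% and 0.555% of positions had a count above 1. The SSB libraries shared 279 positions with each other, or 0.126% of the smaller library, and the AP libraries shared 3273, or 0.381%. Such shares depend on the size of the other library, which was larger for AP sites, and were not adjusted for it. An SSB and an AP library shared 200 to 279 positions, 0.0870% to 0.0974% of the smaller library. The same nucleotide was therefore rarely listed in a pair of libraries, and the comparison rests on kinds of sequence and on regions.

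The sequences at the listed positions separated the assays. Sequence was read for positions within 31365 RefSeq promoters of GRCm38.p6 (250 bases before to 50 after a start), which held 1736 and 2262 SSB positions and 6185 and 6259 AP positions. The examples that follow are the nucleotides in these promoters that both samples of an assay listed, with 10 bases on each side and the listed base in capitals, on the strand given in the file. They are few and do not stand for the base shares over all positions, which follow them. For SSBs 3 such nucleotides were found. The sources used here do not state whether the listed nucleotide is the lesion itself or the base beside it.
Sp140 (chr1:85600728-85600748, plus strand): tctctggttcTgacttactag
Add3 (chr19:53140239-53140259, minus strand): ggttaattgcCaaaataaagc
Nxt1 (chr2:148672594-148672614, minus strand): gactcccgccTccccgcgacg
For AP sites there were 14, of which 11 were adenine, 1 cytosine, 1 guanine and 1 thymine. Of these, 7 lay in promoters of predicted Gm genes, and those in promoters of the remaining genes were as follows.
Olfr324 (chr11:58597372-58597392, plus strand): gatctgacctAagagttttca
Trappc12 (chr12:28750628-28750648, minus strand): aaatcctaggAaaaaacatcc
Ajuba (chr14:54577776-54577796, plus strand): agactgggggAgggggagtga
Tfpi (chr2:84474133-84474153, minus strand): ctcaacaaggTcaagacctga
Nat10 (chr2:103761321-103761341, minus strand): gaaatggcggCcgggagttag
Klk15 (chr7:43931475-43931495, plus strand): ttctccttgcAgactcagaca
Ces2a (chr8:104733963-104733983, plus strand): ctacacccctAaaagtacaaa
Sp140 encodes a nuclear body protein of immune cells and Add3 an adducin of the membrane skeleton. Nxt1 encodes a factor of nuclear mRNA export, Nat10 an RNA cytidine acetyltransferase and Tfpi the inhibitor of tissue factor in coagulation. The listed base was a pyrimidine in the 3 SSB examples and a purine in 5 of the 7 AP examples shown. Over all positions in promoters, however, purines made up 38.6% and 37.4% of SSB positions in samples 1 and 2. Guanine, listed in 1 of the 14 shared AP nucleotides, made up 37.1% and 37.2% of all AP positions there.

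Over all positions in promoters, AP sites were mostly listed at purines. Adenine made up 39.0% (95% exact binomial interval 37.7% to 40.2%) and 38.8% of AP positions in samples 1 and 2, against 23.0% of the promoter bases over both strands. Guanine made up 37.1% and 37.2%, against 27.0% of the promoter bases. Purines together were 76.1% and 76.0% of AP positions. Cytosine made up 15.3% and 15.5%, and thymine 8.55% and 8.53%. The samples thus differed by less than 0.3 percentage points for each base, within their counting intervals.

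SSB positions had few adenines. Adenine made up 6.11% (5.03% to 7.34%) of SSB positions in sample 1 and 6.41% (5.44% to 7.50%) in sample 2. Cytosine made up 35.4% and 35.9%, guanine 32.5% and 31.0%, and thymine 26.0% and 26.6%. Between assays, adenine at the listed base was 32.6 ± 0.349 percentage points lower at SSB positions (mean ± SD of 2 samples), cytosine 20.3 ± 0.267 points higher, thymine 17.8 ± 0.464 points higher and guanine 5.41 ± 1.08 points lower. These differences depend on where each assay places the listed base relative to the lesion, which is not known here. For every base the libraries of the assays did not overlap, and the exact two-sided permutation p was 0.333, the smallest that 2 against 2 libraries allow. In CpG-rich promoters, taken separately, the adenine difference was -24.3 points, and in CpG-poor promoters -35.8 points.

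The bases upstream of the listed position differed as well. At the base directly 5′ of an SSB position, cytosine reached 46.8% and 47.3% while adenine stood at 5.82% and 5.88%. In AP libraries, adenine at this base was 11.6% and 10.9%. The mean shares there were 11.2% adenine, 40.2% cytosine, 32.4% guanine and 16.2% thymine. For each base these were nearer to the listed SSB base than those of the listed AP base were. At AP positions the cytosine maximum lay a base further upstream, where it reached 53.7% and 54.3% and adenine fell to 3.41% and 4.17%. The corresponding base of SSB positions held 33.5% and 31.3% cytosine and 15.2% and 15.3% adenine. Directly 3′ of the listed position, guanine was at 39.4% and 39.2% for AP sites and 27.2% and 28.9% for SSBs, and adenine at 27.2% and 27.0% for AP sites and 27.7% and 24.9% for SSBs.

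Pairs of neighbouring bases showed the same contrast. Cytosine followed by a listed adenine made up 21.1% and 21.2% of AP positions, against 4.55% and 5.08% of SSB positions and 6.83% of all neighbouring pairs in the promoters. Adenine followed by a listed adenine made up 0.173% and 0.0442% of SSB positions, against 6.20% of promoter pairs and 3.28% and 3.45% of AP positions. Cytosine followed by a listed cytosine was at 17.9% and 18.3% of SSB positions, against 5.32% and 5.62% of AP positions. A base earlier, at the 2 bases directly 5′ of the listed one, adenine followed by adenine was as rare in the AP libraries, 0.0162% and 0.0479%, so that this depletion lay a base further upstream at AP positions than at SSB positions. The pair that is the target of DNA methylation, cytosine followed by guanine, was listed at its guanine at similar shares in both assays, 9.50% and 9.46% for SSBs and 9.98% and 10.2% for AP sites, above its 4.21% of promoter pairs. The similarity held for this placing of the pair only. At the 2 bases directly 5′ of the listed one, it made up 4.95% and 3.93% for SSBs and 12.7% and 13.1% for AP sites.

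**Figure D1:**
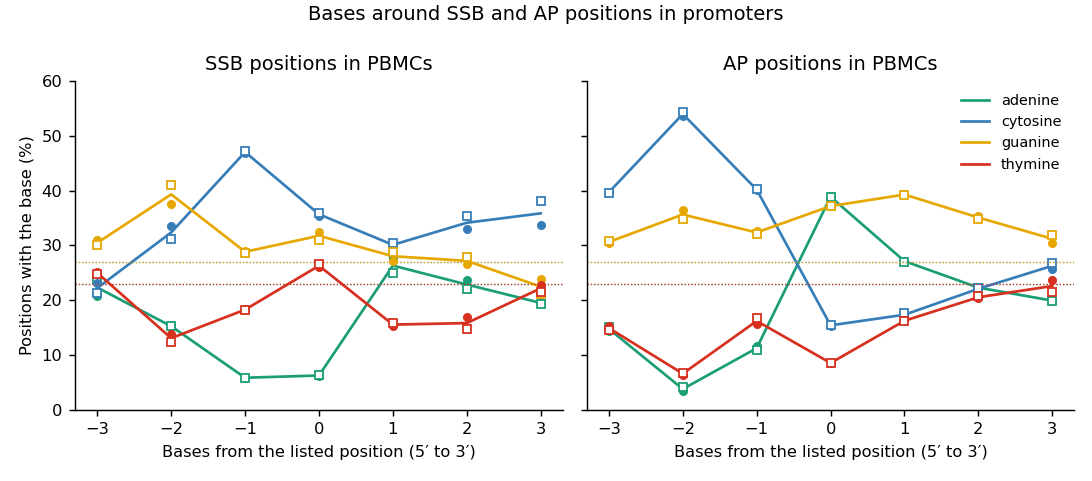
Share of positions (%) with adenine, cytosine, guanine or thymine at the listed position (0) and the 3 bases on each side, for SSBs (left) and AP sites (right) of PBMCs in promoters. Filled circles are sample 1, open squares sample 2, lines their mean, and dotted lines the promoter background of 23.0% for adenine and thymine and 27.0% for cytosine and guanine. Adenine is near 6% at SSB positions and near 39% at AP positions.

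The base shares of SSBs were set against the 10 samples of the 5 other tissues, 8 comparisons with exact two-sided permutation tests whose smallest possible p is 0.0152. This comparison was added after the values were seen. Cytosine at the SSB position was lower in both PBMC samples (mean 35.7%) than in all 10 other samples (37.1% to 42.0%, median 39.2%), with p = 0.0152 by the exact permutation test and an adjusted p of 0.121. Thymine was 26.3% in PBMCs against 17.3% to 27.4% elsewhere (median 19.6%; exact p = 0.0455, adjusted p = 0.162), and the highest of the other values was in sperm. For AP sites, guanine was 37.2% in PBMCs against 34.4% to 36.7% (exact p = 0.0606, adjusted p = 0.162) and adenine 38.9% against 36.0% to 41.2%. None of the 8 comparisons passed 0.05 after adjustment.

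SSBs and AP sites also differed in the strand on which they lay within genes. This was measured in 14403 autosomal genes with a known strand that overlap no other annotated gene. On the strand of the gene, which carries the sequence of its RNA, lay 55.6% (55.1% to 56.1%) and 55.1% (54.6% to 55.5%) of SSB positions. For AP sites the shares were 50.6% (50.3% to 50.8%) and 50.2% (49.97% to 50.49%). The SSB share was higher than the AP share by 5.06 points in sample 1 and 4.84 points in sample 2, with an exact two-sided permutation p of 0.333, the smallest possible. Over the whole autosomes, 50.2% and 50.3% of SSB positions and 51.0% and 50.9% of AP positions were on the plus strand.

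The SSB excess on the gene strand was present along the whole gene. Within 1 kb after the start it was 55.3% and 54.3%, at 20 to 50 kb 56.0% and 56.0%, and beyond 100 kb 54.5% and 53.8%. In the last 1 kb before the 3′ end it reached 56.8% and 55.7%. AP sites there were at 49.2% (48.2% to 50.3%) and 48.1% (47.1% to 49.2%). Within 1 kb after the start they were at 48.7% (47.7% to 49.7%) and 47.7% (46.7% to 48.7%). These shares lay on the other side of an even split, which the interval of sample 1 in the last 1 kb included. Protein-coding genes had 56.4% and 55.7% of their SSBs on the gene strand and lncRNA genes 51.9% and 52.2%. Genes under 20 kb had 53.5% and 53.4%, and genes of 100 to 500 kb 56.2% and 56.1%.

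Olfactory receptor genes departed from an even split in opposite directions for the assays. These genes encode the odorant receptors of the nasal epithelium, form large clusters and are silent in blood cells. In 906 such genes, 66.2% (59.5% to 72.4%) and 73.6% (67.9% to 78.7%) of 219 and 276 SSB positions were on the gene strand. Of 872 and 856 AP positions, 38.9% (35.6% to 42.2%) and 37.7% (34.5% to 41.1%) were. The same orientation was seen in all 10 samples of other tissues, where SSB shares lay between 62.4% and 70.7% and AP shares between 36.4% and 44.1%. Vomeronasal receptor genes, a second family of chemosensory receptors, had 53.9% and 53.5% for SSBs and 44.8% and 47.3% for AP sites. The 4 lists of blood cell genes together (T cell, B cell, NK and cytotoxic, monocyte and neutrophil; 46 genes) had 53.3% (47.0% to 59.4%) and 54.3% for SSBs, with intervals too wide to separate them from all genes. These lists were set out after their values were seen and were given no test. The base composition of gene strands was not measured here, and its part in these shares was not tested.

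**Figure D2:**
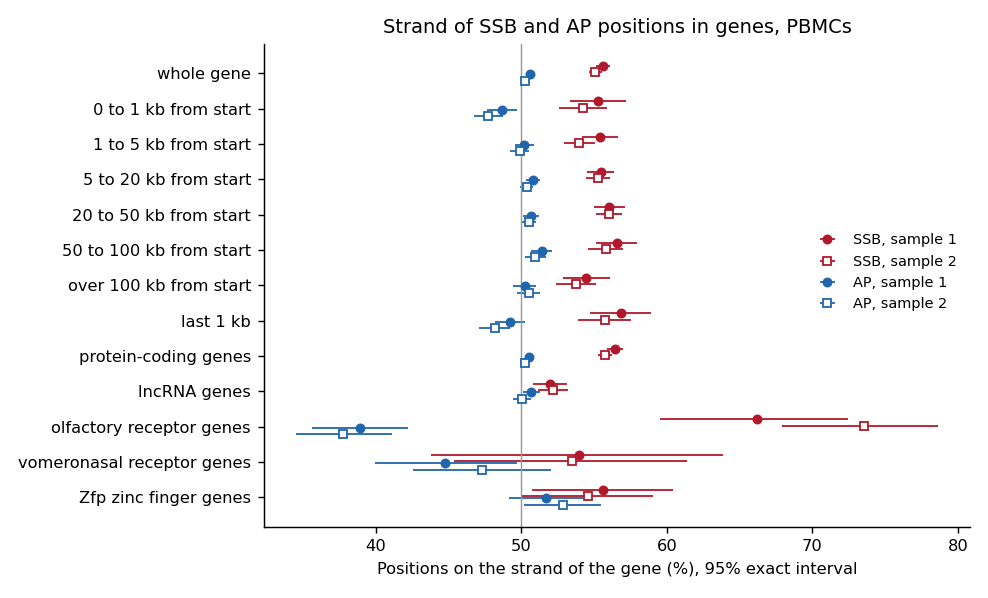
Share of SSB (red) and AP (blue) positions on the strand of the gene (%) in PBMCs by distance from the start, in the last 1 kb, by gene class and in 3 gene families, with 95% exact binomial intervals; filled circles are sample 1 and open squares sample 2. SSB shares lie above 50% and AP shares near 50% in most rows, and olfactory receptor genes show 66.2% and 73.6% for SSBs against 38.9% and 37.7% for AP sites.

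The gene-strand share in PBMCs was compared with the other tissues in 3 exact permutation tests. The SSB share averaged 55.3% in PBMCs against 52.7% to 55.7% in the 10 other samples (median 53.8%; exact p = 0.0758, adjusted p = 0.205). The difference between SSB and AP share averaged 4.95 points against 2.53 to 5.41 points (exact p = 0.136, adjusted p = 0.205). A difference of PBMCs from the other tissues was not established.

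Both lesions were denser at gene starts. Within 1 kb of a start, which covers 1.94% of the autosomes, lay 3.64% (3.56% to 3.72%) and 3.63% (3.561% to 3.696%) of SSB positions and 3.31% (3.27% to 3.35%) and 3.48% (3.44% to 3.51%) of AP positions. The SSB share exceeded that of AP sites by 1.10-fold in sample 1 and 1.04-fold in sample 2, a mean log2 ratio of 0.10 ± 0.053 (SD, n = 2), with no overlap of the groups and an exact two-sided permutation p of 0.333. Bins of 500 bp were counted over all 25748 genes with a known strand, overlapping ones included. The density in the first bin after the start was 1.81 and 1.88 times that 5 to 10 kb upstream for SSBs and 1.69 and 1.78 times for AP sites. The rise at starts was thus present for both lesions. In the same bins, and so not in the 14403 genes used for the strand shares above, the SSB strand share was higher after the start than before. It was 47.0% and 49.3% in the 500 bp before, where sample 2 was near an even split, and 53.4% and 52.9% in the 500 bp after. AP sites stayed between 48.6% and 50.7%.

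The SSB to AP ratio at starts was larger at CpG-rich promoters. These were defined as 300 bases with a G plus C share of at least 0.55 and an observed to expected CpG ratio of at least 0.6, and 4621 starts met the definition. Around CpG-rich starts lay 0.805% (0.768% to 0.843%) and 0.807% (0.776% to 0.840%) of SSB positions and 0.657% (0.640% to 0.674%) and 0.704% (0.686% to 0.722%) of AP positions. The SSB share was 1.23-fold and 1.15-fold the AP share in samples 1 and 2. Around the 14225 CpG-poor starts the log2 ratio was 0.05 in sample 1 and -0.0073 in sample 2, so the samples disagreed in sign. CpG-rich promoters are typical of widely expressed genes and CpG-poor ones of tissue-restricted genes.

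At 3′ ends the share of positions did not separate the assays, while the height of the peak before the end did. Within 1 kb of a 3′ end lay 3.18% and 3.13% of SSB positions and 3.15% and 3.23% of AP positions, which overlap. Both had their highest density 500 to 1000 bp before the 3′ end. It was 1.26 and 1.28 times the level 5 to 10 kb before that end for SSBs. For AP sites it was 1.36 and 1.36 times that level, so that AP sites were higher there in both samples. All 25748 genes with a known strand entered these bins, so in short genes the reference level lay outside the gene. This difference was not tested.

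**Figure D3:**
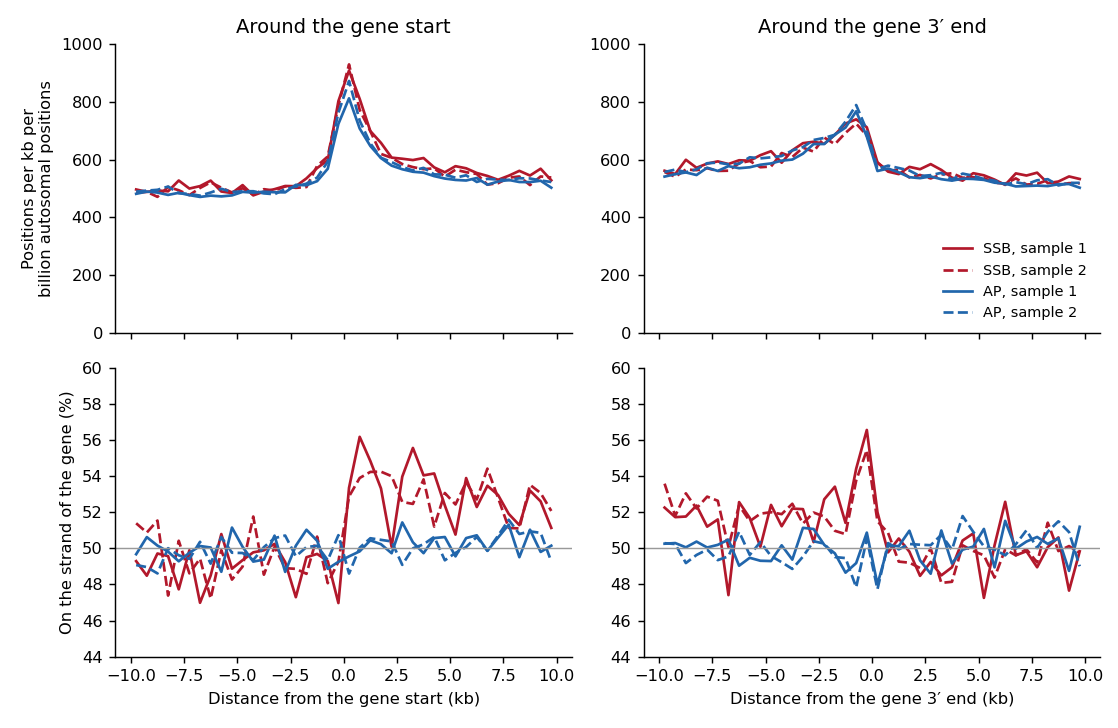
Density of SSB (red) and AP (blue) positions per kb per 1000000000 autosomal positions (top) and share on the strand of the gene in % (bottom), in 500 bp bins within 10 kb of gene starts (left) and 3′ ends (right), negative distances being upstream; solid lines are sample 1, dashed lines sample 2. Density peaks after the start, at 908 and 929 for SSBs and 812 and 872 for AP sites, and the SSB strand share rises at the start and falls after the 3′ end. All 25748 genes with a known strand are included, also those that overlap another gene.

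Away from starts, SSBs were spread over the genome in nearly the same proportions as AP sites. The rest of genes held 57.0% and 56.8% of SSB positions and 57.2% and 57.4% of AP positions. The space outside genes held 36.5% and 36.7% against 36.7% and 36.2%. The 4084 windows of 100 kb without any gene held 8.66% and 8.85% against 8.81% and 8.51%. Across 5 classes of windows by gene coverage, the log2 ratio lay between -0.040 and 0.060 in the individual samples. The highest class, over 95.5% covered by genes, had fewer SSBs than AP sites in both samples (log2 ratio -0.040 and -0.026) and the class of 65.3% to 95.5% had more (0.048 and 0.0068). Per autosome, the log2 ratio ranged from -0.049 to 0.057 over both samples. AP sites of the same tissue served as the reference for copy number and mappability, and whether both assays share the latter was not tested.

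At starts the 2 PBMC samples lay below the 2 samples of bone marrow, the tissue in which blood cells are made, a pair of groups that was not tested alone. The log2 ratio of SSB to AP share at starts was 0.14 and 0.062 in PBMCs, 0.64 and 0.51 in bone marrow, 0.25 to 0.27 in brain, 0.44 to 0.47 in heart, 0.35 to 0.52 in liver, and -0.034 and 0.14 in sperm. At CpG-rich starts it was 0.29 and 0.20 in PBMCs and 1.16 and 0.98 in bone marrow. Only sperm reached as low as PBMCs. Against all 10 other samples the difference in mean was -0.26 at starts (exact p = 0.121, adjusted p = 0.848 over 14 kinds of region) and -0.47 at CpG-rich starts (exact p = 0.106, adjusted p = 0.848). None of the 14 kinds of region passed 0.05 after adjustment, either in this comparison or with sperm, whose DNA was purified with another kit, left out (smallest adjusted p of the exact tests 0.104). Since sperm was the tissue at the level of PBMCs, leaving it out gives no separate support for a lower ratio in PBMCs.

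**Figure D4:**
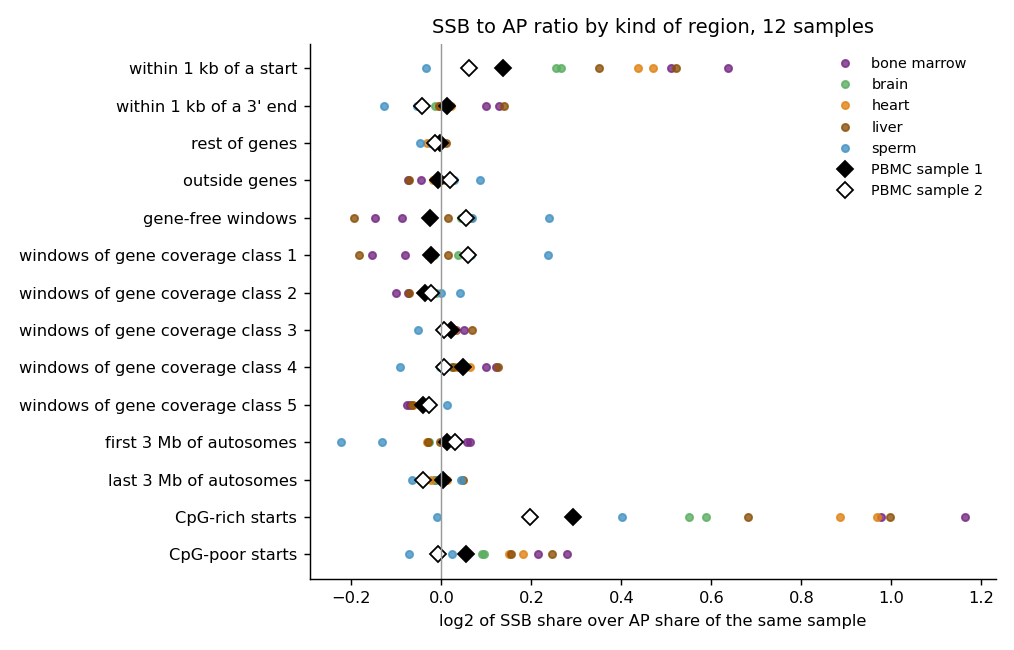
Log2 of the SSB share over the AP share of the same sample for 14 kinds of region; black and white diamonds are PBMC samples 1 and 2 and coloured dots the 10 samples of other tissues. At starts and CpG-rich starts the PBMC samples (0.14 and 0.062; 0.29 and 0.20) lie with the sperm samples below the other tissues, and in the kinds of region other than starts all samples lie between -0.22 and 0.24.

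Single regions were tested with edgeR's quasi-likelihood test and Benjamini-Hochberg adjustment over all features with at least 10 positions. Of 23873 windows of 100 kb, 5 had an adjusted p under 0.05, or 0.0209%, and in all 5 SSBs were higher. This direction is not independent of depth, since the SSB libraries were the smaller ones. An unadjusted p under 0.05 was reached by 6.14% of windows. Across the windows tested, 96.3% had a log2 difference between -1 and 1. The log2 ratios of samples 1 and 2 had a Pearson correlation of 0.0427 over the 23873 windows and 0.133 over 2412 windows of 1 Mb, which share their libraries, so that most of the variation between windows at 100 kb was not repeated in the other sample.

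The window with the smallest p, chr13:119500001-119600000, lies over Tmem267, a transmembrane protein gene without a settled function. SSB positions numbered 23 and 16 in samples 1 and 2 and AP positions 7 and 8, although the AP libraries held more positions in all. In positions per 1000000 autosomal positions these are 104 and 53.4 for SSBs and 7.83 and 9.32 for AP sites. The log2 difference was 3.10 ± 0.41 (SE), with an adjusted p of 1.62e-09 by edgeR. Of the SSB positions, 51.3% lay within 1 kb. At equal depth the window was not called (adjusted p = 0.982 by edgeR). Without SSB sample 1 the adjusted p was 0.0534 by edgeR. In the other tissues SSBs were higher in 10 of 10 samples, at 39.5 to 78.1 per 1000000 against 6.17 to 14.7 for AP sites.

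Tmem267 was also the gene called, 1 of 22269 tested or 0.00449%. Over its 122 kb it held 33 and 31 SSB positions and 28 and 26 AP positions, a 3.97-fold higher share (log2 1.99 ± 0.28 SE, adjusted p = 1.55e-08 by edgeR). An unadjusted p under 0.05 was reached by 1374 genes, or 6.17%, and DESeq2 also called this gene and no other. In positions per kb per 1000000 autosomal positions, SSBs were at 1.22 and 0.845 and AP sites at 0.256 and 0.248. Without its low-count filter edgeR gave an adjusted p of 0.194, and 0 genes passed.

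The window chr17:39800001-39900000 holds the rRNA sequences annotated as Rn18s-rs5 and AY036118. It had 109 and 118 SSB positions and 233 and 218 AP positions, or 494 and 393 per 1000000 against 261 and 254. The log2 difference was 0.76 ± 0.12 (SE; adjusted p = 4.50e-06 by edgeR), and without SSB sample 1 the adjusted p was 0.691. The other tissues again had more SSBs than AP sites in 10 of 10 samples, and their SSB level, 463 to 1195 per 1000000 with a median of 737, was higher than that of PBMC sample 2 in every sample. Ribosomal RNA genes are repeated, and reads from many copies can fall on the few placed in the assembly.

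The window chr9:124200001-124300000, with Gm39469 and 2010315B03Rik, had 17 and 22 SSB positions against 18 and 12 AP positions (log2 2.12 ± 0.36 SE, adjusted p = 3.47e-05 by edgeR), and 53.8% of its SSBs lay within 1 kb. Its adjusted p was 0.0534 without SSB sample 1 and 0.0706 without SSB sample 2. SSBs were higher there in 10 of 10 other samples too. In the remaining windows the other tissues were divided. At chr8:88100001-88200000, with Cnep1r1, Heatr3 and Tent4b, SSBs were at 72.5 and 60.02 per 1000000 and AP sites at 20.1 and 21.0 (log2 1.66 ± 0.36 SE, adjusted p = 0.0276 by edgeR), while SSBs of other tissues were at 17.3 to 44.3 and above AP sites in 5 of 10 samples. At chr17:3000001-3100000, with the pseudogene Pisd-ps2, SSBs were at 195 and 220 per 1000000 and AP sites at 118 and 126 (log2 0.78 ± 0.18 SE, adjusted p = 0.0495 by edgeR), and other tissues had more SSBs in 6 of 10 samples, including bone marrow at 179.6 and 159.7 for SSBs against 121 and 134 for AP sites. Leaving out any of the 4 libraries ended both calls, with adjusted p-values of 0.230 to 0.691 for the window on chromosome 8 and 0.186 to 0.843 for that on chromosome 17. With the replicate block the latter had an adjusted p of 0.0659 by edgeR.

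**Figure D5:**
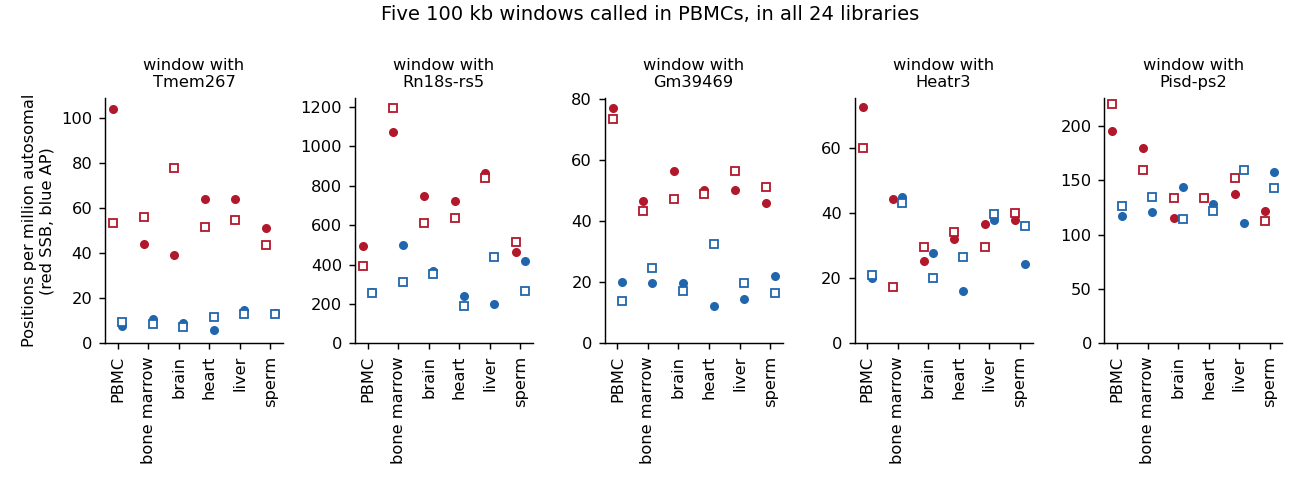
SSB (red) and AP (blue) positions per 1000000 autosomal positions in the 5 windows called in PBMCs, named by a gene in each, for all 6 tissues; filled circles are sample 1 and open squares sample 2. SSBs lie above AP sites in every tissue at Tmem267, Rn18s-rs5 and Gm39469, at Heatr3 in 5 of the 10 samples of other tissues and at Pisd-ps2 in 6 of 10, among them both bone marrow samples.

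No window passed in the direction of AP sites by edgeR, with TMM scaling or by DESeq2. The 5 with the smallest p in that direction were at chr11:119400001-119500000 (Rnf213, log2 -1.27, adjusted p = 0.172 by edgeR), chr4:78700001-78800000, chr10:85800001-85900000 (Prdm4), chr2:164200001-164300000 (the seminal vesicle secretory protein genes Svs2 and Svs4) and chr10:94800001-94900000 (Plxnc1). The window on chromosome 4 had 0 and 0 SSB positions against 14 and 17 AP positions, and its adjusted p was 0.225 by edgeR. At this depth even a window without SSBs did not pass, so the direction of the calls at 100 kb does not compare the lesions. In windows of 1 Mb, 10 of 2412 passed (0.415%), 4 higher in SSBs and 6 higher in AP sites. The log2 differences ran from -0.55 to -0.39 in those higher in AP sites and from 0.41 to 0.67 in those higher in SSBs. An example is log2 -0.46 ± 0.10 (SE) at chr13:72000001-73000000, with 130 and 141 SSB positions and 650 and 605 AP positions (adjusted p = 0.00671 by edgeR).

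Long genes showed how close the assays were. The 1376 genes with at least 200 positions over the 4 libraries had a median log2 difference of -0.034, with 5% below -0.39 and 5% above 0.31, and the values ran from -0.82 at Cdh11 to 0.67 at Grm5. Cdh13, an atypical cadherin gene of 1185 kb, had 135 and 193 SSB positions and 728 and 710 AP positions (log2 -0.38 ± 0.090 SE, adjusted p = 0.237 by edgeR). It was singled out after its values were seen, because with TMM scaling it passed (log2 -0.45, adjusted p = 0.0108).

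Blood cell genes were tested as 4 lists. Of 29 T cell genes tested, 0 passed in either direction and 3 had an unadjusted p under 0.05, all higher in SSBs, with a median log2 difference of 0.10 against -0.014 over all genes tested, where 0.00449% passed and 6.17% had an unadjusted p under 0.05. DESeq2 called 0 members of any list. The members with most positions included Rora, a nuclear receptor of T and innate lymphoid cells, with 95 and 162 SSB positions and 463 and 462 AP positions, and Skap1, an adaptor of T cell receptor signalling, with 51 and 51 against 169 and 147. Their log2 differences were -0.098 ± 0.10 and 0.12 ± 0.17 (SE). Fyn, a kinase of the same pathway, had 29 and 59 SSB positions and 165 and 140 AP positions, so its samples lay on either side of the AP level.

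Of 27 B cell genes 0 passed and 1 had an unadjusted p under 0.05, higher in AP sites, with a median of -0.065. Among all genes tested by edgeR, 0.00449% passed and 6.17% had an unadjusted p under 0.05. Foxp1, a transcription factor of B cell development, had 89 and 134 SSB positions and 399 and 386 AP positions (log2 -0.065 ± 0.11 SE). Aff3 had 72 and 92 against 326 and 303 (-0.19 ± 0.13 SE), and Ebf1, which specifies the B lineage, 58 and 83 against 247 and 261. None of the 3 passed the test.

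Of 13 NK and cytotoxic cell genes and 16 monocyte and neutrophil genes, 0 passed, 0 and 1 had an unadjusted p under 0.05, and the medians were -0.24 and -0.020. The shares over all genes tested were 0.00449% passing and 6.17% at an unadjusted p under 0.05 by edgeR. These genes are short, and their lists held 53 and 63 and 73 and 77 SSB positions in all. Itga2 had 12 and 10 SSB positions, the interleukin-2 receptor chain gene Il2rb 11 and 6, and the kinase gene Txk 5 and 12. The kinase gene Lyn had 19 and 10 and the integrin gene Itgb2 9 and 7. Csf1r, the receptor of colony stimulating factor 1, had 4 and 2 SSB positions against 24 and 26 AP positions (log2 -1.29 ± 0.56 SE, adjusted p = 0.810 by edgeR). Differences in single genes of this size were not detectable at this depth.

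The antigen receptor loci, which lymphocytes rearrange, were measured through 14 tested entries, of which 0 passed and 1 had an unadjusted p under 0.05, with a median of -0.050. Over all genes tested by edgeR, 0.00449% passed and 6.17% had an unadjusted p under 0.05. Igh had 119 and 201 SSB positions and 593 and 505 AP positions (log2 -0.029 ± 0.095 SE). Igk had 134 and 163 against 469 and 437 (0.14 ± 0.10 SE), and Tcra 82 and 111 against 344 and 340 (-0.075 ± 0.12 SE). In positions per kb per 1000000 autosomal positions the 3 loci were at 0.171 to 0.244 for SSBs and 0.161 to 0.241 for AP sites, lower than Rora, at 0.586 and 0.735 for SSBs. The list as a whole had a log2 ratio of -0.10 in sample 1 and -0.028 in sample 2. It was summed entry by entry, so a position in overlapping entries counted for each of them.

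The other lists gave 0 genes passing in either direction, with 6 of 35 giant neural genes, 3 of 25 olfactory receptor genes, 4 of 50 vomeronasal receptor genes, 9 of 309 Zfp genes, 1 of 15 immediate early genes and 0 of the rest at an unadjusted p under 0.05. For all genes tested by edgeR the shares were 0.00449% passing and 6.17% at an unadjusted p under 0.05. The 35 giant neural genes held 3864 and 5347 SSB positions and 16546 and 15911 AP positions, a log2 ratio of -0.081 and -0.056. Csmd1 (log2 -0.15 ± 0.085 SE), Lsamp (-0.082 ± 0.085 SE) and Rbfox1 (-0.12 ± 0.086 SE) contributed most. The summed log2 ratios of samples 1 and 2 were -0.20 and -0.11 for cytosolic ribosomal protein genes, 0.29 and 0.13 for immediate early genes, -0.15 and -0.065 for vomeronasal receptor genes, -0.0080 and -0.029 for olfactory receptor genes, 0.069 and 0.023 for Zfp zinc finger genes, and -0.16 and -0.035 for red cell and platelet genes. Replication-dependent histone genes were at -0.0050 and 0.25 with 16 and 30 SSB positions. In the sums of all lists, a position in overlapping gene spans counted for each gene.

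Few gene ends had enough positions to be tested singly. Of 343 start windows of 2 kb, 1 passed (0.292%) and 8.16% had an unadjusted p under 0.05. It was that of the lncRNA gene Gm41253, with 7 and 3 SSB positions and 0 and 1 AP positions (adjusted p = 0.00398 by edgeR). The window reached the minimum of 10 positions only through its SSBs, and 0 start windows were called without this minimum or by DESeq2, so the call is no more than a description of these counts. The next in that direction did not pass: Zdhhc25, Gabrp, Gm32362 and Gm52483, with adjusted p = 0.597 each by edgeR. In the direction of AP sites 0 passed, and the 5 with the smallest p were Gm52742, Gm52541, Gm29978, Psmb8 and Spa17, each with 0 SSB positions and 12 to 17 AP positions over both samples. Leaving out any of the 4 libraries left 0 start windows called. In the other tissues SSBs exceeded AP sites at Gm41253 in 3 of 10 samples.

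Windows of 2 kb at 3′ ends gave 1 of 257 (0.389%), with 2.33% at an unadjusted p under 0.05. It was that of the lncRNA gene Gm40237, with 4 and 11 SSB positions and 0 and 1 AP positions (log2 5.20 ± 0.85 SE, adjusted p = 4.35e-07 by edgeR). This window too reached the minimum of 10 positions only through its SSBs, and 0 were called without the minimum, with TMM scaling or by DESeq2. SSBs were higher there in 10 of 10 samples of other tissues. Without SSB sample 2, 0 were called. Tmem9, Gm12679, Tpsg1 and Gm40034 followed in that direction, and Mcm7, a subunit of the replicative helicase, with Ifitm5, Sox6, Exoc2 and Ube3b in the other, none passing.

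Promoter sequence was read for 4 of the named start windows, Gm41253, Zdhhc25, Gm32362 and Gm52742, and is shown where it held a listed nucleotide. The promoters of Gm41253 and Zdhhc25 held none. Gm32362 starts beside Pou5f1 (Oct4, a factor of pluripotent cells) on the opposite strand, and its promoter is at chr17:35505688-35505987, minus strand, with the 2 nucleotides listed as SSBs on either strand in capitals. That of Gm52742, within the locus of Akna, is at chr4:63395064-63395363, plus strand, with the 5 nucleotides listed as AP sites in capitals. Both are RefSeq sequences of GRCm38.p6.
Gm32362: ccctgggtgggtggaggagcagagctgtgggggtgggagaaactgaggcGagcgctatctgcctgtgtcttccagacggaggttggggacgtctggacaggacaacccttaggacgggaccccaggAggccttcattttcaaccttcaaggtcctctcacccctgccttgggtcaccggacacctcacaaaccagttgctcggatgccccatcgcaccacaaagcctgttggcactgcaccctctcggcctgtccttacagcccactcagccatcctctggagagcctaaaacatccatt
Gm52742: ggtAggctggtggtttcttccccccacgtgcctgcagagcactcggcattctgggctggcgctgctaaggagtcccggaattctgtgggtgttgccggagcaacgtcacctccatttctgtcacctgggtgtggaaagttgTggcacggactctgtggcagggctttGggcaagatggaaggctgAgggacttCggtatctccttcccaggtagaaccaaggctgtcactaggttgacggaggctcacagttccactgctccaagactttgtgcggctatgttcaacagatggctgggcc
The first has a G plus C share of 59.7% and 9 CpG pairs, the second 58.0% and 10.

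The difference between SSB and AP sites in PBMCs was compared with that of the other tissues for each window and gene in a fit of all 24 libraries. Against the mean of the 5 other tissues, 0 of 23891 windows and 0 of 22478 genes passed (0.0% each) by edgeR, with 1119 (4.68%) and 1143 (5.08%) at an unadjusted p under 0.05. Against bone marrow, 0 passed in either, with 1321 windows (5.53%) and 1294 genes (5.76%) at an unadjusted p under 0.05. The window of smallest p with a higher SSB to AP difference in PBMCs was chr8:88100001-88200000 (interaction log2 1.51, adjusted p = 0.834 by edgeR), one of those called within PBMCs. That with a lower difference was chr7:25000001-25100000, which holds the glutamate receptor gene Grik5 (-1.28, adjusted p = 0.834). Among genes the first in each direction were Phf3 (1.48, adjusted p = 0.967) and Grik5 (-1.72, adjusted p = 0.967).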

How the data were processed

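SSBs were mapped by SSiNGLe and AP sites by SSiNGLe-AP. The authors deposited a list for each library in which a line holds 1 nucleotide, its strand and an unnormalized read count. Replicates are not pooled. Per the labels, the processing notes name the builds mm10 and GRCm38, and RSEM 1.2.28, a tool for RNA. The aligner and filters are not given in the sources used here.

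Each position was counted once in each feature that held it. Shares refer to autosomal positions. Gene spans are those of RefSeq GRCm38.p6 (47042 autosomal genes), and strands came from its promoter table for 25748 genes. Gene ends and strands of chromosome 18 were not analysed here. Counts per window of 100 kb, gene and gene end (1 kb on each side) were tested with edgeR 4.0.16 in R 4.3.3 (quasi-likelihood test, group as the only term, autosomal positions as library size, at least 10 positions over the 4 libraries, Benjamini-Hochberg, threshold 0.05). Fits of start and 3′ end windows used an untrended dispersion where the trend could not be fitted. DESeq2 1.42.0 was an alternative. Shares have exact (Clopper-Pearson) 95% intervals, which cover counting error only, and groups were compared with exact two-sided permutation tests (scipy 1.17.1 under Python 3.11.15, with tables in pandas 2.3.3 and figures in matplotlib 3.10.9). The scripts were tested on simulated counts.

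The labels state that SSBs and AP sites of a number came from the same sample. Deviations of same-numbered libraries from their group means had a correlation of -0.00639 over 23873 windows. The replicate block was an alternative fit.

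The samples, gene lists and tests were chosen with earlier results of these data known. Named were the genes past the threshold (up to 10 of smallest p in each direction), the 3 members of each of 13 lists with most positions (a selection is printed), and the 5 windows, starts and 3′ ends of smallest p in each direction, with ties in order of symbol. Alternatives were other scaling, tests, filters, window sizes, summed counts, equal depth, protein-coding genes, and leaving out each library; the crossed block, promoter classes and the settings for bone marrow were added after the data were seen. RNA profiles and other ages were not analysed here.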

Additional observations from a re-analysis of the deposited data

How the results depend on the processing

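Leaving out 1 sample could not fail the rule used here, since each of 2 samples lies within 1 SD of their mean. Under the other alternatives tried, the SSB to AP ratios by kind of region, the strand share and the base shares kept their values within 1 SD of the 2 samples, except as follows. With protein-coding genes, the log2 ratio of windows in the second class of gene coverage was -0.017. The difference of SSBs from AP sites at the listed base was, in CpG-rich promoters, -24.3 points for adenine, 18.1 for cytosine, -8.22 for guanine and 14.5 for thymine, and in CpG-poor promoters -35.8 for adenine, 21.1 for cytosine and 19.6 for thymine. The cause was not tested.

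The count of called windows, 5 as reported, was 2 with DESeq2, 3 with all 24 libraries, 9 with summed counts, 0 at equal depth, 10 with windows of 1 Mb, and 0 to 4 with 1 library left out (0 without SSB sample 1, 3 without SSB sample 2 and without AP sample 1). With the replicate block, 4 windows, 1 gene, 1 start and 1 3′ end were called, and the block changed no count by over 1.5 times. At 1 Mb the correlation of same-numbered deviations was -0.112, and the crossed block called 5 windows of 100 kb. The count of genes, 1 as reported, was 2 with TMM, 0 without a filter, 2 with summed counts, 0 at equal depth, and 1 to 1 with 1 library left out. Start windows, 1 as reported, went to 0 with DESeq2, without a filter, with at least 40 positions, at equal depth, with 5 kb on each side, and in every fit without a library (0 to 0). 3′ end windows, 1 as reported, went to 0 with TMM, DESeq2, no filter and at least 40 positions, to 2 with summed counts and with 5 kb on each side, and to 0 to 1 with 1 library left out (0 without SSB sample 2). Comparisons with the other tissues called 0 under all alternatives run.

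Tmem267 kept its call in 11 of 13 alternatives, with a log2 difference of 1.74 to 2.27. Its adjusted p ran from 2.05e-09 to 0.984 over the edgeR and DESeq2 fits. The chr13 window kept its call in 11 of 13, and at equal depth its adjusted p was 0.982 by edgeR. That window lost its call without SSB sample 1 as well. The chr17:3000001 window kept its call in 4 of 13. Of genes named without a call, the log2 difference of Rora was 0.033 without SSB sample 1 and -0.29 without SSB sample 2, that of Skap1 -0.085 and 0.36, and that of Igh 0.097 and -0.22, with 0.060 for Igh without AP sample 1. TMM moved the median log2 difference from -0.24 to -0.58 over start windows, from -0.24 to -0.50 over 3′ end windows and from -0.014 to -0.077 over genes, where it called 1 gene in each direction.

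At 220728 positions in the smaller SSB library, a window of 100 kb or a gene of usual length holds few SSBs, so small differences in single regions were not detectable, and 2 against 2 libraries cannot reach an exact p below 0.333.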
